A study of Mus musculus with 18 samples.

Results

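The genes described here are Nfe2l2, which encodes the transcription factor NRF2, its inhibitor Keap1, and 8 genes that NRF2 is known to activate: Hmox1, Nqo1, Gclc, Gclm, Txnrd1, Srxn1, Slc7a11 and Prdx1. They were chosen by name as known parts of this pathway, by a rule that used no measured value, though earlier results of these data were known. All 10 were found among the 11243 protein-coding genes of the count table. RAW264.7 cells, a macrophage line of the mouse used here without genetic change, were the source of all libraries. Control cells were given the vehicle, LPS cells received 500 ng/mL LPS from Salmonella enterica for 6 h, and LPS and torin1 cells received 100 nM torin1, an active-site inhibitor of the mTOR kinase, 15 min before the same LPS. Each of the 3 treatments was repeated in 3 independent experiments, and both the total mRNA of each lysate and its heavy polysomes, the fraction whose mRNAs carry many ribosomes, were sequenced, for 18 libraries in all. Torin1 without LPS was not analysed here, so every torin1 value below is a value in the presence of LPS.

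NRF2 is made all the time in most cells and is held low by KEAP1, an adaptor that brings it to the CUL3 ubiquitin ligase for destruction. When electrophiles or oxidants modify cysteines of KEAP1, or when p62 (the product of Sqstm1) takes KEAP1 away, NRF2 accumulates, pairs with a small MAF protein and binds antioxidant response elements in its target genes. The targets supply glutathione, reduce thioredoxin and peroxiredoxins, and break down haem and quinones. In macrophages LPS is known to raise both oxidant production and parts of this defence, and several of the targets are also read by other factors, among them AP-1, BACH1 and ATF4.

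To show which of these elements lie close to the start of the genes, promoter windows from 250 bases before to 50 bases after the start were taken from RefSeq (build GRCm38.p6), which gave 10 windows for 8 of the 10 genes, 3 of them for Txnrd1. Hmox1 and Gclc had no entry in that table. The antioxidant response element core was searched as TGACNNNGC, the AP-1 site as TGANTCA and the core of the response element shared by C/EBP and ATF factors as TGATGNAA, on both strands. The first 2 motifs can overlap, since an AP-1 site followed by GC can match both. Of all 32851 promoter windows of that length, 12.4% held the antioxidant core, 7.81% the AP-1 site and 3.97% the C/EBP-ATF core. The antioxidant core was found in windows of Nfe2l2, Gclm, Txnrd1 and Prdx1 before the start and in that of Srxn1 after it. For Txnrd1 it was not in all 3 windows, but at a start inside the gene, downstream of its first base (chr10:82833951). One stretch is printed for each of the 6 genes whose windows held a motif, so that the letters can be read beside the values of the gene, with the motif in capitals and each stretch on the strand of its gene.
Slc7a11, C/EBP-ATF core on either strand (chr3:50443651-50443680, minus): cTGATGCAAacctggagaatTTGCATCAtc
Prdx1, antioxidant core overlapped by AP-1 site (chr4:116685456-116685485, plus): cagggaaagcGCTGAGTCAtcccccgtagg
Txnrd1, antioxidant core (chr10:82859104-82859133, plus): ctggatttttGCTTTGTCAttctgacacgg
Gclm, antioxidant core (chr3:122245413-122245442, plus): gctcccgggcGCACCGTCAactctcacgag
Nfe2l2, antioxidant core (chr2:75704884-75704913, minus): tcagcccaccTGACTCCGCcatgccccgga
Srxn1, AP-1 site nearer the start (chr2:152105468-152105497, plus): caaattcacccTGAGTCAgcggccgggcgc
The pair of C/EBP-ATF cores in Slc7a11 lay 66 to 40 bases before its start. Srxn1 and Prdx1 each held an AP-1 site at 2 positions, those of Srxn1 beginning 102 and 45 bases before the start, and the windows of Keap1 and Nqo1 held none of the 3 motifs. A match is a description of the letters, and binding was not measured in these libraries.

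The 11243 genes received 27800983 to 47725557 counts per library, and the lowest count of any of the 10 genes was 50, for Nqo1. All 8 macrophage markers looked for, among them Csf1r, Adgre1 and Cd68, were present, with a summed level between 12138 and 15189 CPM (counts scaled to the total of the library) in total mRNA. None of the T cell, B cell, fibroblast or epithelial markers looked for was in the table. The 2 endothelial markers that were, Cdh5 and Vwf, summed to at most 5.49 CPM in any library. The table keeps only genes with no 0 count in any library, so absence from it does not show that a gene was not expressed. Of 7 LPS response genes looked for, 4 were in the table (Tnf, Il1b, Ptgs2 and Cxcl10). They summed to between 318 and 410 CPM in total mRNA of control cells, to between 10634 and 13006 with LPS and to between 5615 and 6694 with LPS and torin1. CPM values were scaled by the trimmed mean of M values (TMM) among the 9 libraries of one RNA type. In total mRNA the TMM factors were 1.15 to 1.18 in control, 0.88 to 0.93 with LPS and 0.93 to 0.97 with LPS and torin1. They raise LPS values against control relative to library totals alone, a scaling not run as an alternative. The quasi-likelihood test of edgeR, adjusted over all 11243 genes, was used for differences. A gene was called at an adjusted p of at most 0.25, a lenient threshold under which some called genes have 95% intervals that cross 0. In such bulk libraries a change in the share of cells that express a gene cannot be told apart from a change in each cell.

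LPS divided the 10 genes into groups (see the plot of levels by library). In total mRNA Slc7a11, Hmox1, Prdx1, Txnrd1, Keap1 and Srxn1 were called higher and Gclc, Nqo1 and Gclm lower, that is 6 genes up, against 32.2% of all genes, and 3 down, against 34.3%. Upper quartile scaling moved the median log2 difference of all genes by −0.14 in this comparison, so that 35.3% of the calls were higher in place of 48.4%, and 5 of the 10 genes were then called higher and 3 lower. The median log2 difference was 0.39 for the 10 genes and −0.02 for all genes. The 3 LPS libraries lay wholly above the 3 control libraries for 5 of the genes, as for 25.6% of all genes, and wholly below them for Gclc, as for 28.3%. Torin1 with LPS against LPS left a smaller and mixed set: Hmox1, Nfe2l2 and Gclc were called higher (3 genes, against 27.3% of all genes) and Srxn1 and Keap1 lower (2 genes, against 26.4%). For this comparison the median was −0.02 over the 10 genes and 0.00 over all genes. Libraries did not overlap for Nfe2l2 and Hmox1 (2 genes higher, against 22.2%) and for Srxn1 (1 gene lower, against 19.8%). The shares for torin1 lie near the background, and the genes are therefore described one at a time. The comparisons of LPS with control and of LPS and torin1 with LPS share the LPS libraries, so a high or low LPS library enters them with opposite signs. The LPS calls of Slc7a11, Hmox1, Prdx1, Txnrd1 and Gclc kept their direction and passed under every alternative run, in both RNA types.

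**Figure D1:**
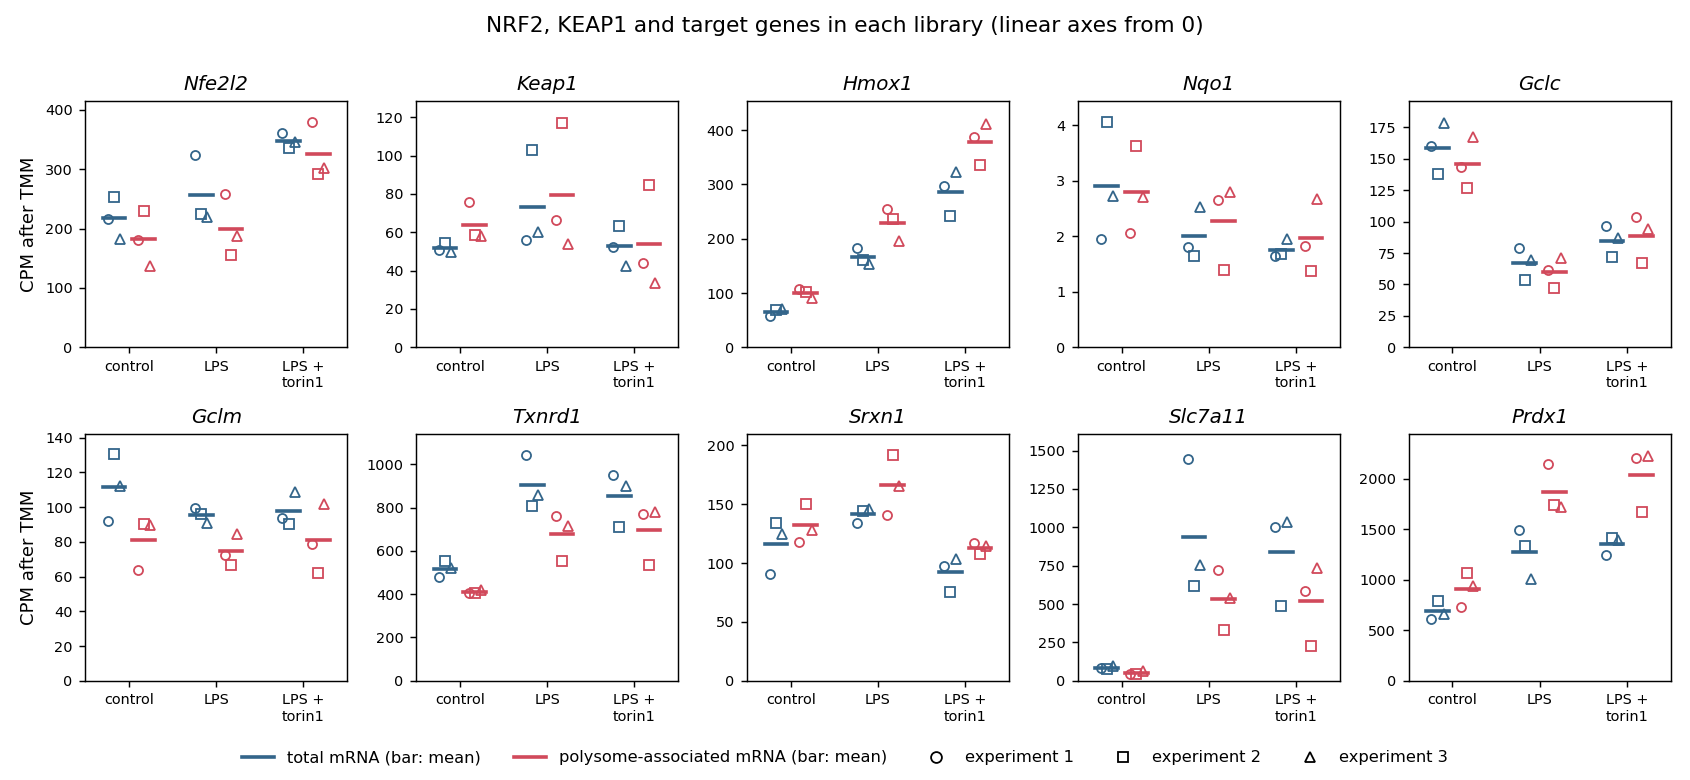
Level of each of the 10 genes in CPM after TMM scaling (linear axes from 0) in the 3 treatments, with blue for total and red for polysome-associated mRNA, a symbol for each experiment and a bar for the mean of 3. Slc7a11 rises from 85.1 to 940 CPM in total mRNA with LPS, Hmox1 rises at each step, and Gclc falls from 159 to 67.3 CPM.

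**Figure D2:**
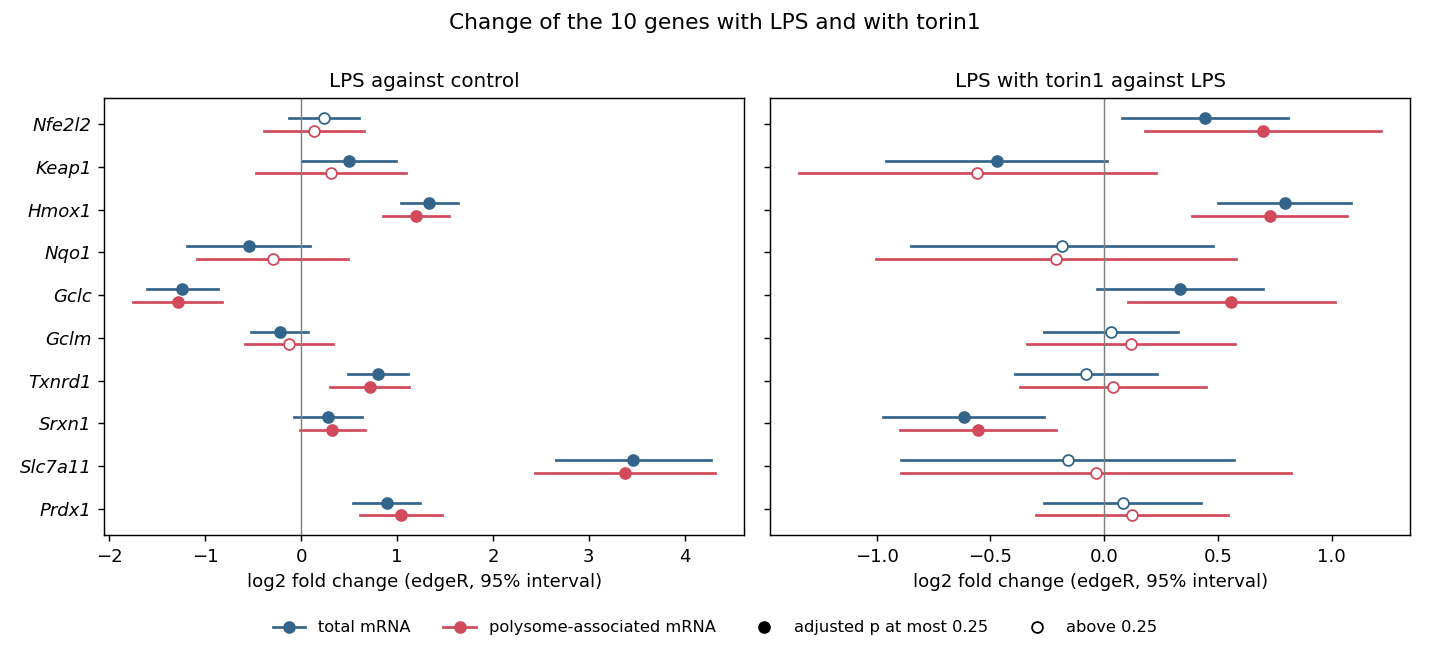
Log2 fold change with its 95% interval from edgeR for LPS against control (left) and for LPS and torin1 against LPS (right), in total (blue) and polysome-associated mRNA (red), with filled points at an adjusted p of at most 0.25. On the left 6 genes are filled to the right of 0 in total mRNA, and on the right Nfe2l2, Hmox1 and Gclc lie above 0 and Srxn1 below it in both RNA types.

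The regulators themselves moved less than the strongest targets. Nfe2l2 (GRCm38 chr2:75675513-75704641, minus strand) stood at 217, 253 and 183 CPM in total mRNA of the control libraries of experiments 1 to 3, at 324, 225 and 219 CPM with LPS, and at 362, 335 and 347 CPM with LPS and torin1. The LPS and control libraries overlapped, whereas all libraries with torin1 were above all others. With LPS alone the log2 difference of 0.23 ± 0.16 (SE) did not pass the edgeR test (adjusted p = 0.270, or 0.202 with the experiment as a block and 0.227 with DESeq2, which are calls). Without experiment 2, where Nfe2l2 was lower with LPS than in control, it was 0.44 (adjusted p = 0.118). Adding torin1 to LPS raised Nfe2l2 by 0.44 ± 0.16 on the log2 scale, or 1.36-fold (edgeR adjusted p = 0.0676), and in all 3 experiments. In polysome-associated mRNA it stood at 181, 230 and 136.3 CPM in control, 258, 155 and 187 CPM with LPS and 380, 293 and 303 CPM with torin1 added, which is 0.70 ± 0.23 above LPS alone (edgeR adjusted p = 0.0733). Both torin1 calls were lost without experiment 3, where the differences were 0.35 (adjusted p = 0.310) and 0.72 (adjusted p = 0.303).

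Keap1 (chr9:21229730-21239361, minus strand) was high with LPS in experiment 2. Its total mRNA was 50.5, 54.6 and 49.9 CPM in control, 56.2, 103 and 60.3 CPM with LPS and 52.2, 63.3 and 42.6 CPM with LPS and torin1. The LPS library of experiment 2 was far above the other 2, and its polysome-associated library was as well, at 117.2 CPM against 66.6 and 54.1. The difference with LPS was 0.50 ± 0.22 on the log2 scale in total mRNA (edgeR adjusted p = 0.0860) and 0.31 ± 0.35 in polysome-associated mRNA (adjusted p = 0.543). Without experiment 2 these were 0.21 (adjusted p = 0.245) and −0.15 (adjusted p = 0.586). With torin1 added Keap1 was 1.39-fold lower than with LPS in total mRNA, at −0.47 ± 0.22 (edgeR adjusted p = 0.132), lower in all 3 experiments but no longer called without experiment 3 (−0.46, adjusted p = 0.321) or with all 18 libraries in one model (adjusted p = 0.313). The polysome-associated difference of −0.56 ± 0.35 did not pass (adjusted p = 0.323), and passed with the experiment as a block (adjusted p = 0.132). It also passed with all 18 libraries in one model (−0.58, adjusted p = 0.192) and without experiment 2 (−0.64, adjusted p = 0.0535). Keap1 shares 510 bases, or 10.9% of its exon length, with the antisense gene Gm16754 on the opposite strand, and how the counting treated strands is not given in the sources used here.

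Slc7a11, the cystine carrier of the xCT antiporter that feeds glutathione synthesis, changed most. The gene (chr3:49892526-50443614, minus strand) stood at 83.5, 78.5 and 93.3 CPM in total mRNA of control cells and at 1447, 618 and 754 CPM with LPS. Every LPS library was thus far above every control library, and that of experiment 1 was highest. The difference was 3.47 ± 0.36 on the log2 scale, an 11.04-fold rise with a 95% interval from 6.31 to 19.3-fold (edgeR adjusted p = 3.84e-05). With torin1 added it stood at 1001, 486 and 1034 CPM, lower than with LPS alone in experiments 1 and 2 and higher in experiment 3. The torin1 difference of −0.16 ± 0.33 did not pass (adjusted p = 0.750), and its interval ran from 0.54 to 1.49-fold. Polysome-associated Slc7a11 went from 44.5, 47.1 and 61.7 CPM to 724, 330 and 540 CPM with LPS, a rise of 3.38 ± 0.43 (edgeR adjusted p = 0.000200), and to 587, 229 and 738 CPM with LPS and torin1. The torin1 difference there was −0.04 ± 0.39 (adjusted p = 0.963). The pair of C/EBP-ATF cores printed above lies before the start of this gene, and whether it bears on these values was not tested.

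The next step of the same pathway went down. Gclc encodes the catalytic subunit of glutamate-cysteine ligase, the rate-limiting enzyme of glutathione synthesis, and Gclm its modifier subunit. Gclc (chr9:77754535-77794485, plus strand) stood at 160, 138 and 179 CPM in control, 79.2, 53.6 and 69.3 CPM with LPS and 96.2, 71.5 and 86.6 CPM with LPS and torin1 in total mRNA. Control libraries were above all others without overlap. LPS lowered Gclc 2.36-fold in total mRNA (−1.24 ± 0.17 on the log2 scale, edgeR adjusted p = 0.000187) and 2.44-fold in polysome-associated mRNA (−1.29 ± 0.21, adjusted p = 0.00100), in all 3 experiments of both RNA types. Torin1 raised it again by part of that difference, by 0.33 ± 0.16 in total mRNA (edgeR adjusted p = 0.157) and by 0.56 ± 0.21 in polysome-associated mRNA (adjusted p = 0.0980), higher in all 3 experiments each time. Both calls were lost without experiment 3, where the differences were 0.34 (adjusted p = 0.391) and 0.67 (adjusted p = 0.289). The first was also lost with all libraries in one model (0.33, adjusted p = 0.257) and the second without experiment 1 (0.45, adjusted p = 0.465). Against control, Gclc stayed lower with LPS and torin1 by −0.91 ± 0.17 in total mRNA (edgeR adjusted p = 0.00123).

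Gclm (chr3:122245557-122270732, plus strand) stayed closer to its control level than Gclc. Its total mRNA stood at 92.0, 130.7 and 111.96 CPM in control, 99.6, 96.1 and 90.9 CPM with LPS and 93.8, 90.4 and 109 CPM with LPS and torin1, with overlap between all groups. The LPS difference of −0.22 ± 0.13 was called (edgeR adjusted p = 0.193), yet experiment 1 moved the other way, the 95% interval ran from −0.52 to 0.07, and the call was lost without experiment 2 (−0.10, adjusted p = 0.629), without experiment 3 (−0.19, adjusted p = 0.475), with DESeq2 (adjusted p = 0.278) and with all libraries in one model (adjusted p = 0.359). The LPS difference was larger with upper quartile scaling (−0.36, adjusted p = 0.0404) and without experiment 1 (−0.36, adjusted p = 0.0826). Torin1 against LPS gave 0.03 ± 0.13 (adjusted p = 0.885). Against control, LPS and torin1 gave −0.19 ± 0.13, with an adjusted p of 0.260, and of 0.233 with the experiment as a block. This difference was also called with upper quartile scaling (−0.29, adjusted p = 0.0844) and without experiment 1 (−0.27, adjusted p = 0.159). Gclm shares 244 exon bases with the pseudogene Gm6061 on its own strand and 296 with Gm17494 on the other, each under 5% of its exon length.

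Txnrd1 and Prdx1, of the thioredoxin system, rose together with LPS. Txnrd1 encodes the cytosolic thioredoxin reductase, and Prdx1 an abundant peroxiredoxin that takes its electrons from thioredoxin to reduce hydrogen peroxide. Txnrd1 (chr10:82833951-82897712, plus strand) went from 481, 553 and 521 CPM in control to 1043, 807 and 857 CPM with LPS in total mRNA, a 1.74-fold rise (0.80 ± 0.14 on the log2 scale, edgeR adjusted p = 0.00108). Prdx1 (chr4:116685544-116700822, plus strand) went from 610, 789 and 660 CPM to 1489, 1330 and 1005 CPM, a 1.86-fold rise (0.89 ± 0.16, edgeR adjusted p = 0.00102). For both genes every LPS library lay above every control library, and experiment 1 gave the largest rise. In polysome-associated mRNA the rises were 0.72 ± 0.19 for Txnrd1 (edgeR adjusted p = 0.0136) and 1.04 ± 0.19 for Prdx1 (adjusted p = 0.00218), and the latter took Prdx1 to 2141, 1743 and 1719 CPM, the highest level of the 10 genes. With torin1 added Txnrd1 stood at 952, 709 and 901 CPM and Prdx1 at 1244, 1412 and 1390 CPM in total mRNA, and for both genes these libraries overlapped with those of LPS alone. Against LPS the difference was −0.08 ± 0.14 for Txnrd1 (95% interval from 0.76 to 1.18-fold) and 0.08 ± 0.16 for Prdx1 (0.83 to 1.34-fold), with adjusted p of 0.707 and 0.728.

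Srxn1 encodes sulfiredoxin, which repairs peroxiredoxins that have been over-oxidized, and was the target gene that torin1 lowered. It (chr2:152105516-152111376, plus strand) stood at 90.8, 134 and 125.1 CPM in total mRNA of control cells, 134, 145 and 146 CPM with LPS and 97.2, 75.8 and 104 CPM with LPS and torin1. Libraries with torin1 were below all those with LPS alone. The difference between them was −0.62 ± 0.16 on the log2 scale, 1.53-fold lower (edgeR adjusted p = 0.0161), and all 3 experiments fell. Polysome-associated Srxn1 fell as well, from 141, 192 and 165 CPM to 117.2, 108 and 114 CPM, by 0.55 on the log2 scale (SE 0.16, edgeR adjusted p = 0.0390), a call that was lost without experiment 3 although the difference was of the same size (−0.55, adjusted p = 0.331). The rise with LPS itself was slight, at 0.28 ± 0.16 in total (adjusted p = 0.176) and 0.33 ± 0.15 in polysome-associated mRNA (adjusted p = 0.132), in all 3 experiments. That rise was no longer called with upper quartile scaling (0.15, adjusted p = 0.481, and 0.20, adjusted p = 0.361), without experiment 1 (0.18, adjusted p = 0.418, and 0.36, adjusted p = 0.287) or without experiment 3 (0.31, adjusted p = 0.322, and 0.31, adjusted p = 0.444). Srxn1 with LPS and torin1 was lower than in control by −0.34 ± 0.16 in total mRNA (edgeR adjusted p = 0.106), which rested on experiment 2 (−0.10 without it, adjusted p = 0.670). In polysome-associated mRNA Srxn1 with LPS and torin1 gave −0.23 ± 0.15 against control (edgeR adjusted p = 0.285, or 0.219 with the block). It was also called there with upper quartile scaling (−0.31, adjusted p = 0.157) and with all libraries in one model (−0.25, adjusted p = 0.213). Those libraries lay wholly below the control libraries.

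Hmox1 encodes haem oxygenase 1, which degrades haem to biliverdin, iron and carbon monoxide, and rose both with LPS and again with torin1. Hmox1 (chr8:75093621-75100589, plus strand) stood at 57.7, 68.9 and 70.0 CPM in total mRNA of control cells, 182, 160 and 154 CPM with LPS and 297, 242 and 323 CPM with LPS and torin1, so that the 3 groups did not overlap. The first step was 1.34 ± 0.13 on the log2 scale, or 2.53-fold (edgeR adjusted p = 2.93e-05), and the second 0.79 ± 0.13, or 1.73-fold (adjusted p = 0.00203). Both together were 2.13 ± 0.14, or 4.38-fold over control. Polysome-associated Hmox1 stood at 108, 101.1 and 90.8 CPM, then 254, 236 and 196 CPM, then 388, 337 and 411 CPM, and again no library overlapped with another group. Its steps were 1.19 ± 0.16 (edgeR adjusted p = 0.000249) and 0.73 ± 0.15 (adjusted p = 0.0126), the second of which narrowly missed the threshold without experiment 3 (0.58, adjusted p = 0.261). Hmox1 was the only one of the 8 target genes that was called higher in both comparisons.

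Nqo1, a quinone reductase and in many cells the target gene most used as a readout of NRF2, was hardly expressed in these cells. Nqo1 (chr8:107388225-107403206, minus strand) had 64, 179 and 93 counts in total mRNA of control cells, 51, 55 and 82 counts with LPS and 50, 50 and 56 counts with LPS and torin1, or between 1.65 and 4.06 CPM. The control library of experiment 2 was the highest and the groups overlapped. A difference of −0.55 ± 0.29 with LPS was called (edgeR adjusted p = 0.148) but came from experiment 2, without which it was −0.10 (adjusted p = 0.819). Likewise LPS and torin1 gave −0.73 ± 0.29 against control (adjusted p = 0.0617), and −0.38 without experiment 2 (adjusted p = 0.381). Neither comparison with LPS passed in polysome-associated mRNA (LPS against control −0.30 ± 0.35, adjusted p = 0.564, and torin1 added to LPS −0.21 ± 0.36, adjusted p = 0.734). Against control, LPS and torin1 gave −0.51 ± 0.35 there, with an edgeR adjusted p of 0.293 and, with the block, of 0.215. This difference was also called with upper quartile scaling (−0.60, adjusted p = 0.216) and with all libraries in one model (−0.53, adjusted p = 0.210).

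The end state of cells given both agents can be read against control. In total mRNA 5 of the 10 genes were called higher, against 33.1% of all genes, and 3 lower, against 33.6%, with Slc7a11 at 9.88-fold, Hmox1 at 4.38-fold, Prdx1 at 1.96-fold, Txnrd1 at 1.65-fold and Nfe2l2 at 1.60-fold (edgeR adjusted p from 1.46e-06 to 0.00651). Nfe2l2 was thus called over control when torin1 was present with LPS, and Keap1, at 0.03 ± 0.22, was not (adjusted p = 0.930). Polysome-associated Keap1 gave −0.25 ± 0.35 against control (edgeR adjusted p = 0.622), and −0.79 without experiment 2 (adjusted p = 0.0106), which is a call. In polysome-associated mRNA LPS against control called 5 genes higher (26.4% of all genes) and 1 lower (28.7%), a comparison in which upper quartile scaling turned the share of higher calls from 47.9% to 36.4% and left 4 genes higher. Torin1 and LPS against LPS called 3 higher (20.3%) and 1 lower (18.2%), and LPS and torin1 against control 5 higher (28.5%) and 1 lower (29.7%).

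The sequencing of total and polysome-associated mRNA from one lysate asks whether the share of an mRNA in heavy polysomes changed apart from its amount. Heavy polysomes were sequenced as a pool, and the paper proposes that shifts not crossing a threshold of 3 ribosomes could be masked. CPM values are relative, so a shift common to all mRNAs would not show in their ratio. The ratio of polysome-associated to total CPM, scaled over all 18 libraries, differed between the 10 genes more than between treatments (see the plot of ratios by lysate). Slc7a11 had the lowest ratio in each treatment, at 0.533, 0.602 and 0.662 in control, 0.504, 0.528 and 0.724 with LPS and 0.584, 0.457 and 0.707 with LPS and torin1. Hmox1 was among the highest, with a mean of 1.55 ± 0.29 (SD, n = 3) in control, 1.38 ± 0.083 with LPS and 1.31 ± 0.043 with both, and Prdx1 reached 1.32 ± 0.12, 1.49 ± 0.22 and 1.50 ± 0.32. Gclm and Txnrd1 stayed below 1 in all 9 lysates, with means from 0.730 to 0.811 and from 0.751 to 0.798.

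**Figure D3:**
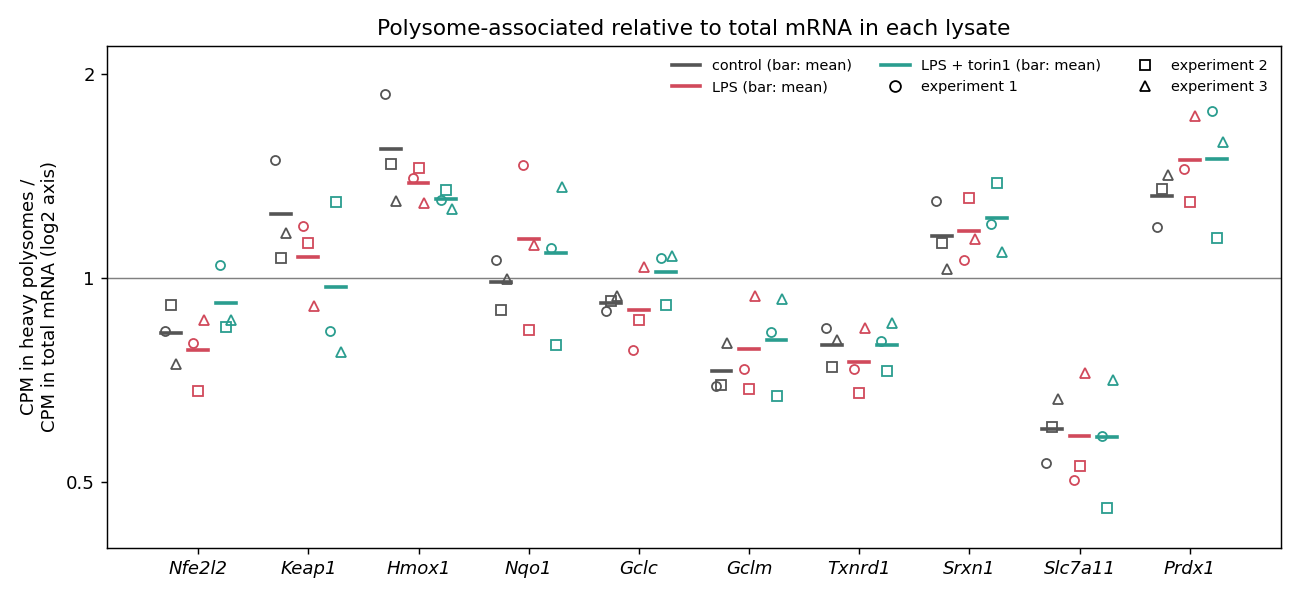
Ratio of polysome-associated to total CPM (log2 axis) of each gene in each of 9 lysates, with colours for the 3 treatments, symbols for the experiments and bars for the mean of 3. Slc7a11 lies lowest, with ratios from 0.457 to 0.724, and for each gene the 3 treatments overlap.

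Polysome-associated against total mRNA within control cells called 2 of the genes higher (Hmox1 and Prdx1, against 36.3% of all genes) and 3 lower (Slc7a11, Gclm and Txnrd1, against 33.2%). With each lysate as a block 8 genes were called, with Keap1 and Srxn1 also higher (adjusted p = 0.0734 and 0.108) and Nfe2l2 also lower (adjusted p = 0.0337). In LPS cells 3 were higher (34.1%) and 4 lower (31.1%), and with LPS and torin1 3 were higher (27.8%) and 3 lower (27.8%). Hmox1, Prdx1, Slc7a11, Gclm and Txnrd1 were called in the same direction in all 3 treatments. Of these, Hmox1 kept its calls under every alternative run. Each of the others lost a call in at least 1 treatment when an experiment was left out, among them Slc7a11 in all 3 without experiment 1 (adjusted p from 0.356 to 0.380), and Gclm with both agents was also not called with upper quartile scaling (adjusted p = 0.262), DESeq2 size factors (0.284) or DESeq2 (0.304). In control cells Hmox1 was higher in polysomes by 0.61 ± 0.14 on the log2 scale (edgeR adjusted p = 0.00257), and Slc7a11 lower by −0.73 ± 0.40 (adjusted p = 0.143, or 0.000285 with the lysate as a block). Of the weaker calls, those for Srxn1 (adjusted p = 0.244) and Nfe2l2 (adjusted p = 0.202) with LPS were each lost when any one experiment was left out, and Gclc with LPS was called only with the block (adjusted p = 0.161).

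A change in translation efficiency, the polysome-associated difference minus the total difference in one model over the 18 libraries, was called for 0 of the 10 genes in each of the 3 treatment comparisons. edgeR called 0 of all genes (0%) in each of them as well at an adjusted p of at most 0.25 and a fold of at least 1.2. The unadjusted edgeR p was under 0.05 for 44, 110 and 145 genes for LPS against control, torin1 and LPS against LPS, and both against control. Each count is below a share of 0.05 of the 11243 genes, which would pass if no gene differed. The model was thus conservative, and 0 calls do not show that efficiency was unchanged. With anota2seq at these thresholds, the paper reports a subset of mRNAs with altered efficiency after LPS, largely reversed by torin1. An analysis of partial variance, written with limma in place of the study's anota2seq, called 10, 21 and 14 genes and DESeq2 1, 7 and 1, none of them among the 10 genes, whose lowest unadjusted edgeR p was 0.262. Estimates for the 10 genes ran from −0.19 (Keap1) to 0.25 (Nqo1) with LPS and from −0.11 (Keap1) to 0.23 (Nfe2l2) with torin1 against LPS. The intervals were wide. For Slc7a11 the torin1 difference in efficiency lay between 0.47 and 2.46-fold and for Hmox1 between 0.70 and 1.26-fold. Shifts within such intervals were not detectable in this model, which did not pair the total and polysome-associated mRNA of a lysate. Within experiments 1 to 3 the Slc7a11 values were 0.21, −0.21 and −0.03 on the log2 scale. With each lysate as a block none of the 10 genes was called either (lowest edgeR adjusted p = 0.659, Keap1, both agents against control).

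Levels of different genes were set side by side per kilobase of exon length. That length joins all annotated exons of a gene, not those of the transcripts present, so the order is only approximate. In total mRNA of control cells Prdx1 was highest, at 226 ± 30.4 CPM per kb (SD, n = 3). Txnrd1 (73.2 ± 5.05), Nfe2l2 (57.3 ± 9.18), Gclc (42.2 ± 5.46), Srxn1 (41.3 ± 8.06) and Hmox1 (37.4 ± 3.90) came next. Gclm (17.7 ± 3.07), Keap1 (11.01 ± 0.542), Slc7a11 (6.11 ± 0.543) and Nqo1 (1.87 ± 0.690) followed. Of the neighbours in that order, Gclc, Srxn1 and Hmox1 differed by less than the larger of their SDs. With LPS the order was led by Prdx1 (419 ± 81.1), Txnrd1 (127 ± 17.6) and Hmox1 (94.5 ± 8.58). Slc7a11 (67.5 ± 31.9) then gave a value close to that of Nfe2l2 (67.4 ± 15.5) on this scale. With LPS and torin1 Hmox1 (164 ± 23.5) stood above Txnrd1 (121 ± 18.1).

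Other genes of the same pathways were taken from 6 lists written for this purpose, of which 83 genes were in the table (see the plot of pathway lists). Of the regulators and partners of NRF2, 9 of 13 were called higher with LPS (32.2% of all genes) and 1 lower (34.3%) in total mRNA, with a list median of 0.28 on the log2 scale, against −0.02 for all genes. The largest rises were those of Maff (2.59 ± 0.27, edgeR adjusted p = 3.92e-05) and Mafk (1.59 ± 0.21), small MAF partners of NRF2, and of Sqstm1 (1.63 ± 0.17), whose product p62 binds KEAP1. Torin1 against LPS called 5 higher (27.3% of all genes) and 5 lower (26.4%). Sqstm1 rose further by 0.92 ± 0.17 (edgeR adjusted p = 0.00329) and Mafg rose by 0.59 ± 0.11, while Mafk fell by 0.58 (SE 0.20, adjusted p = 0.0512). In polysome-associated mRNA LPS called 8 higher (26.4%) and 1 lower (28.7%), with Maff at 2.99 ± 0.30, and torin1 3 higher (20.3%) and 3 lower (18.2%), with Sqstm1 at 1.03 ± 0.17 and Btrc, a substrate receptor of another ubiquitin ligase for NRF2, at 0.56 ± 0.14.

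Among 20 genes of glutathione synthesis and use, 7 were called higher and 8 lower with LPS in total mRNA (median −0.01), which lies near the 32.2% and 34.3% of all genes. Chac1, which degrades glutathione, rose by 3.01 ± 0.75 (edgeR adjusted p = 0.00745), Gpx3, a secreted glutathione peroxidase, by 2.71 ± 0.44, and Glrx, glutaredoxin 1, by 2.06 ± 0.24. With torin1 3 were called higher (27.3% of all genes) and 8 lower (26.4%). Chac1 fell by 3.42 (SE 0.77, edgeR adjusted p = 0.00896) and Glrx by 1.68 (SE 0.24, adjusted p = 0.000840), whereas Slc7a11 gave −0.16 ± 0.33, as described above. Mgst2 fell by 0.84 (SE 0.30, adjusted p = 0.0619). In polysome-associated mRNA LPS called 6 higher and 4 lower (26.4% and 28.7% of all genes) and torin1 0 higher and 6 lower (20.3% and 18.2%; with DESeq2 also 0 and 6, and at an unadjusted edgeR p under 0.05 0 and 5), with Chac1 at −3.91 ± 0.83 and Glrx at −1.72 ± 0.23 for torin1 (edgeR adjusted p = 0.0126 and 0.00159).

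Of 16 further genes of the thioredoxin and peroxiredoxin system, 7 were called higher (32.2% of all genes) and 2 lower (34.3%) with LPS in total mRNA (median 0.12). DESeq2 gave the same counts, and an unadjusted edgeR p under 0.05 gave 4 higher and 2 lower. Sesn2 rose by 2.40 ± 0.35 and Sesn1 fell by 2.29 (SE 0.16, edgeR adjusted p = 2.70e-06). Both encode sestrins, known also as sensors that restrain mTOR complex 1. Prdx5, another peroxiredoxin, rose by 1.80 ± 0.19. With torin1 1 gene was called higher (27.3% of all genes) and 5 lower (26.4%), led by Sesn2, which fell by 2.69 (SE 0.36, adjusted p = 0.000658), then Prdx6 (−0.48 ± 0.13) and Msra (−0.48 ± 0.13), a methionine sulfoxide reductase. Polysome-associated mRNA gave 5 higher and 2 lower with LPS (26.4% and 28.7%) and 0 higher and 6 lower with torin1 (20.3% and 18.2%). For torin1 DESeq2 and an unadjusted edgeR p under 0.05 also gave 0 higher and 6 lower. Of 8 genes that supply NADPH, the electron source for thioredoxin and glutathione reductases, 1 was called higher with LPS in total mRNA (Nadk, NAD kinase, 0.97 ± 0.093, edgeR adjusted p = 2.07e-05) and 2 lower (Idh1, −0.57 ± 0.13, and Taldo1, −0.48 ± 0.14), against 32.2% and 34.3% of all genes. Torin1 called 0 higher (27.3%) and 4 lower (26.4%) there, among them G6pdx (−0.27 ± 0.13), which opens the pentose phosphate pathway, with differences no larger than that, and DESeq2 gave the same counts, but 0 genes had an unadjusted edgeR p under 0.05. In polysome-associated mRNA LPS called 1 higher (26.4%) and 4 lower (28.7%), and torin1 0 (20.3% and 18.2%; DESeq2 1 lower, and 0 at an unadjusted edgeR p under 0.05).

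The list of haem, iron and detoxification enzymes went both ways with LPS, with 7 of 17 higher and 5 lower in total mRNA (median 0.05), near the 32.2% and 34.3% of all genes. Por, cytochrome P450 reductase, rose 2.46-fold and Fth1, the ferritin heavy chain that stores iron, 1.88-fold (edgeR adjusted p = 6.99e-05 and 0.00111), while Cbr3, a carbonyl reductase, fell by 1.07 (SE 0.28, adjusted p = 0.00956). With torin1 7 were called higher (27.3% of all genes) and 1 lower (26.4%), the other way round for Cbr3 (0.78 ± 0.28, edgeR adjusted p = 0.0611), Cbr1 (0.69 ± 0.29) and Osgin1 (0.86 ± 0.31), which LPS had lowered, and in the same direction as with LPS for Fth1 (0.58 ± 0.16, adjusted p = 0.0216). The LPS libraries enter both differences. In polysome-associated mRNA LPS called 6 higher and 5 lower (26.4% and 28.7%), and torin1 5 higher (20.3%) and 1 lower (18.2%), which was Akr1b8 (−0.58 ± 0.21).

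Among 9 enzymes that make or remove superoxide and hydrogen peroxide, 6 were called higher (32.2% of all genes) and 1 lower (34.3%) with LPS in total mRNA (median 0.46). Sod2, the mitochondrial superoxide dismutase, rose by 2.39 ± 0.12 (edgeR adjusted p = 4.86e-07), Cybb, the catalytic subunit of the phagocyte NADPH oxidase, by 1.32 ± 0.14, and Rac2, a GTPase of that oxidase, by 0.74 ± 0.11. Torin1 called 5 higher (27.3%) and 2 lower (26.4%), with the oxidase subunits Ncf4 (0.67 ± 0.088, edgeR adjusted p = 0.000578) and Cyba (0.40 ± 0.16) among those higher. Polysome-associated mRNA gave 5 higher and 1 lower with LPS (26.4% and 28.7%) and 2 higher and 2 lower with torin1 (20.3% and 18.2%). Over the 6 lists no called gene changed its sign in total or polysome-associated mRNA with either other scaling. Upper quartile scaling lost 8 of the 56 calls for LPS in total mRNA. These were Cul3, Rbx1 and Mafg of the NRF2 regulators, Txn2, Prdx2 and Txnl1 of the thioredoxin list, Gsr and Cyba.

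**Figure D4:**
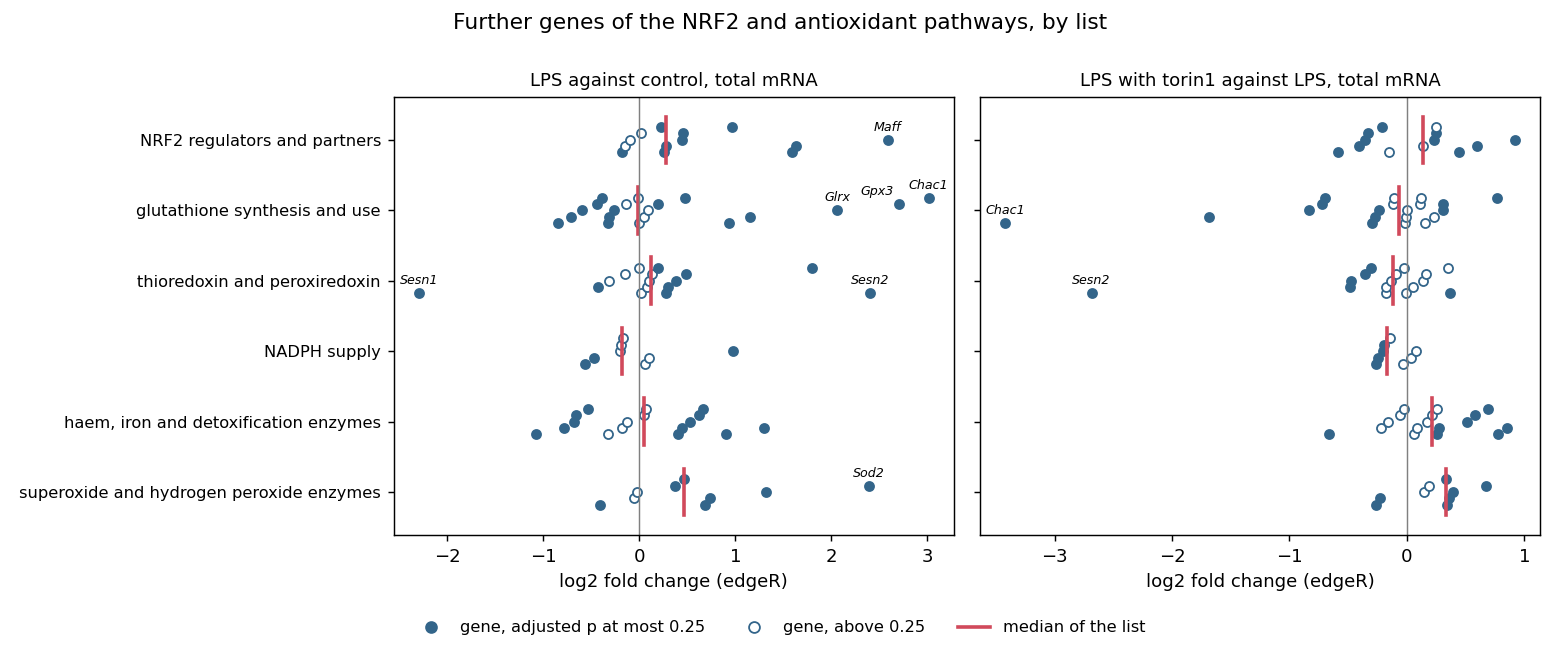
Log2 fold change in total mRNA of 83 further pathway genes in 6 lists for LPS against control (left) and LPS and torin1 against LPS (right), with filled points at an adjusted p of at most 0.25 and red bars for the median of each list. Chac1 and Sesn2 lie far to the right with LPS (3.01 and 2.40) and far to the left with torin1 (−3.42 and −2.69).

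Patterns like those of the 3 genes with the largest LPS differences were looked for over the 18 libraries, as the root mean square difference of log2 CPM from the control mean of each RNA type. Slc7a11 was nearest to Spaca6 (0.38), Bcl2a1b (0.46) and Pde4b (0.46), Hmox1 to Sh3pxd2b (0.19), Arid5b (0.19) and Agtrap (0.22), and Gclc to Kif11 (0.13) and Kdelc2 (0.15). For none of the 10 genes was another of them among its 3 nearest genes. The member nearest to Slc7a11 was Hmox1, at rank 386 among the 11243 genes, and the one nearest to Hmox1 was Prdx1, at rank 367. Such ranks ran from 244, for Txnrd1 among the neighbours of Prdx1, to 2625, for Srxn1 among those of Gclm. Whether the members lie closer to each other than genes taken at random was not tested.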

How the data were processed

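RNA was measured in 18 libraries of RAW264.7 cells: total and heavy-polysome mRNA of control, LPS, and LPS and torin1 cells in 3 experiments. The authors made stranded libraries after removal of ribosomal RNA, ran a nextflow pipeline in which Hisat2 aligned the paired-end reads to GRCm38 and featureCounts assigned them to genes, and kept protein-coding genes with no 0 count. The deposited values are these raw counts, with no normalization. Versions of Hisat2 and featureCounts and the strand setting of the counting are not given in the sources used here. The depth ran from 27800983 to 47725557 counts per library.

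Differences were fitted with edgeR 4.0.16 in R 4.3.3 (TMM, quasi-likelihood test, treatment as the only term, the 9 libraries of an RNA type in one model, Benjamini-Hochberg over 11243 genes, threshold 0.25). Translation efficiency was the polysome-associated minus the total difference, as an interaction term of a model with 6 groups, called at a fold of 1.2 or more. The study's tool anota2seq was not installed, so an analysis of partial variance, the kind of model it fits, was written with limma 3.58.1 as an alternative. DESeq2 1.42.0, other scalings, a mean of at least 10 counts, a threshold of 0.05, other models, each experiment left out and a replicate block were the other alternatives. Scripts were tested on simulated data. The members and lists were chosen with earlier results of these data known. All members are named, as are, from each list, at most 3 called genes with the largest difference that moved alike in all 3 experiments, per comparison and RNA type. Some genes that would be named by these rules are not reported here.

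The experiment number in the labels pairs libraries, since the methods describe matched total and polysome mRNA from independent experiments. Deviations from the group mean correlated at 0.417 on average between same-numbered libraries of total mRNA (lowest 0.127). In polysome-associated mRNA the average was 0.321 (lowest −0.14). Between other numbers the averages were −0.206 and −0.155, but subtracting the mean of 3 libraries by itself pulls these below 0. Polysome-associated control libraries of experiments 1 and 2 did not follow their number, with values of 0.030, −0.038, −0.074 and −0.14. The other same-numbered polysome-associated pairs ran from 0.444 to 0.843. P-values measure the spread between these experiments of one cell line. Exon lengths, overlaps and positions came from an annotation of GRCm38.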

Additional observations from a re-analysis of the deposited data

How the results depend on the processing

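Of the 10 genes, the number called fell at a threshold of 0.05 to 5 for LPS against control and to 2 for torin1 and LPS against LPS in total mRNA, to 2 for the latter in polysome-associated mRNA, and to 2 for polysome-associated against total mRNA in each treatment. One model over all libraries called 3 for torin1 and LPS against LPS in total mRNA. With the replicate block, polysome-associated against total mRNA called 8 in control cells. The block changed no other call of the 10 genes than those given beside the results. Leaving out one experiment called from 7 to 8 genes for LPS against control, from 2 to 5 for torin1 and LPS against LPS and from 6 to 9 for LPS and torin1 against control in total mRNA, and from 5 to 7, 0 to 5 and 6 to 7 in polysome-associated mRNA, the 0 without experiment 3. It called from 2 to 7, 3 to 5 and 3 to 4 for polysome-associated against total mRNA in the 3 treatments, in the same order of control, LPS and both, and 0 to 0 for translation efficiency.

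Of all genes, torin1 and LPS against LPS called 6038 in total and 4322 in polysome-associated mRNA, 3959 and 1187 without experiment 3, 1782 in polysome-associated mRNA without experiment 1, and 3279 and 1557 at 0.05. For LPS against control in polysome-associated mRNA 6191 became 3901 without experiment 1 and 3654 at 0.05, and for LPS and torin1 against control 6546 became 4156 without experiment 3 and 3950 at 0.05. At 0.05 polysome-associated against total mRNA called 4841 with LPS and 3481 with both, against 7328 and 6252. For translation efficiency the block called 0, 25 and 3 genes, and 430 were called without experiment 2 for LPS and torin1 against control.

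Signs turned only for values of 0.31 or less in size that had not been called, 47 times over all alternatives, 31 of them for translation efficiency or polysome-associated against total mRNA. For LPS and torin1 against control, upper quartile scaling gave −0.0737 for Keap1 in total mRNA, and DESeq2 and its size factors 0.00162 for Gclm in polysome-associated mRNA. Upper quartile scaling gave 0.00364 for Slc7a11, torin1 and LPS against LPS, in polysome-associated mRNA. For translation efficiency DESeq2 gave 0.00111 and its size factors 0.00129 for Nqo1, torin1 and LPS against LPS. With the replicate block Slc7a11 gave −0.00779 and Prdx1 −0.00464 in that comparison, Txnrd1 −0.000215 and Slc7a11 −0.0565 for both agents against control, and Keap1 −0.0802 for polysome-associated against total mRNA with both. The analysis of partial variance, which allows a slope other than 1 between the RNA types, gave for LPS against control 0.55 for Hmox1 and 0.0890 for Gclc, for torin1 and LPS against LPS 0.33 for Hmox1 and −0.25 for Srxn1, and for both agents against control −0.0752 for Nfe2l2, 0.87 for Hmox1, −0.11 for Txnrd1, −0.0770 for Srxn1 and −0.52 for Slc7a11.

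With one experiment left out the log2 differences ran as follows. For torin1 and LPS against LPS they were from −0.47 to 0.15 (Slc7a11), −0.0871 to 0.0888 (Gclm) and −0.0856 to 0.26 (Prdx1) in total mRNA, and from −0.35 to 0.15 (Slc7a11) in polysome-associated mRNA. For both agents against control they were from −0.0837 to 0.14 (Keap1) in total mRNA, and from −0.79 to 0.0195 (Keap1) and −0.13 to 0.23 (Gclm) in polysome-associated mRNA. For LPS against control in polysome-associated mRNA they were from −0.0938 to 0.49 (Nfe2l2), −0.15 to 0.56 (Keap1), −0.59 to 0.19 (Nqo1) and −0.25 to 0.0337 (Gclm). For translation efficiency they were from −0.15 to 0.0222 (Gclc), −0.22 to 0.0596 (Nfe2l2) and −0.0505 to 0.17 (Srxn1) for LPS against control, from −0.37 to 0.0972 (Keap1), −0.29 to 0.17 (Nqo1) and −0.0815 to 0.10 (Prdx1) for torin1 and LPS against LPS, and from −0.0621 to 0.11 (Slc7a11), −9.12e-05 to 0.35 (Prdx1) and −0.0258 to 0.0698 (Txnrd1) for both against control. For polysome-associated against total mRNA they were from −0.0916 to 0.0363 (Nqo1) in control, −0.00413 to 0.34 (Nqo1) with LPS, and −0.30 to 0.16 (Keap1) and −0.0751 to 0.32 (Nqo1) with both. The cause of these turns was not tested.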
